A study of Drosophila melanogaster with 3 samples.

Results

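The *dpr*, *DIP*, *beat* and *side* genes encode cell surface and secreted proteins of the immunoglobulin superfamily. They comprise 54 of the 17558 genes in the count table. Members were chosen by symbol alone: *dpr* followed by digits (21 genes), symbols starting with *DIP-* (11 genes), symbols starting with *beat-* (14 genes), and *side* with the genes starting with *side-* (8 genes). All 54 such genes of the annotation were found in the table by FlyBase ID, and all are protein coding. The material was heads of untreated adult wild-type *Drosophila melanogaster* raised at 25°C, sequenced as 3 replicate mRNA libraries of 1 group. The series text calls the flies CantonS, the methods of the study define wild type as w1118, and the methods speak of adults of both sexes for the study at large. The sex, age and number of heads of these particular libraries are not given in the sources used here. No mutant or treated library was analysed, so genes are compared with each other inside each library, and replicates with each other. Nothing in the labels says whether the replicates came from separate cultures, so their spread may be technical.

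Dpr proteins (defective proboscis extension response) and DIPs (Dpr-interacting proteins) bind each other across cell contacts, and different neuron types display different combinations of them. Such pairs are known for matching synaptic partners in the fly visual system and at the larval neuromuscular junction. Beat and Side proteins (Beaten path and Sidestep) form a second receptor and ligand system. In the founding example, Beat-Ia is made by motor axons and Side by the surfaces they grow on, and the pair lets axons leave the nerve bundle at their target muscles. Most of this work concerns development, and the measurements here are of adult heads.

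The libraries held 8332583, 7349123 and 6299265 counts in replicates 1, 2 and 3. The value of 1 read was 0.120 to 0.159 CPM, the unit used for the counts of a gene scaled to the total of its library. Of the 7 neuron markers that were matched, each was present, and the lowest value of any was 193 CPM (*elav* in replicate 2). All 6 glial and 4 photoreceptor markers were present too, as were muscle, fat body and haemocyte genes, so RNA of tissue outside the brain was part of every library. In such bulk RNA, fewer cells of a type and less RNA per cell cannot be told apart.

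Of the 54 members, 52 were detected, meaning at least 10 counts summed over the libraries. By the same minimum, 69.3% of protein-coding genes and 57.5% of all table genes were detected. Detected members had between 275 and 3759 counts in sum, with a median of 855. The Wilson 95% interval of a single value, which covers counting error only, reached from 5.21% to 23.1% of the value on each side (median 11.2%). Together the 4 families took 0.26% of all counts. Dpr genes held 43.0% of the members' CPM, Side genes 26.4%, Beat genes 20.03% and DIP genes 10.6%.

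The pair of members below the minimum differed in kind. *DIP-iota* (FBgn0031837, chromosome 2L, 6617134 to 6621700) had 3, 4 and 1 counts in replicates 1, 2 and 3. These correspond to 0.36, 0.54 and 0.16 CPM, and the Wilson 95% interval in replicate 1 ran from 0.12 to 1.06 CPM. *beat-IIIa* (FBgn0265607, chromosome 2L, 17131024 to 17173118) was listed at 0 in every library, where the limit of 3 counts that a count of 0 allows is 0.36, 0.41 and 0.48 CPM in replicates 1, 2 and 3 (upper Wilson 95% limits 0.46, 0.52 and 0.61 CPM). In Ensembl release 115, 4457 of its 4457 exon bases are also exons of CG34106 on the same strand, and CG34106 was listed at 0 as well. Among the 296 protein-coding genes whose exon bases are all shared with another gene on the same strand, 94.6% were listed at 0. Among the 9018 that share no exon base with any gene, 20.2% were. The 0 of *beat-IIIa* therefore gives no level for this gene, and it is left out of the comparisons below except where stated.

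Levels of different genes were compared per kilobase of exon, because a long mRNA yields more fragments than a short one. Detected members had a median of 11.3 CPM per kilobase ± 0.67 (SD of the library medians, n = 3), against 12.8 ± 0.33 for the 9479 detected protein-coding genes. Per kilobase, receptors of these families were thus near the middle of detected protein-coding genes, and 21 of 52 lay above the protein-coding median. Before division by length they were higher, with a median of 38.6 CPM against 28.3 CPM for those genes. The families differed. The median was 14.3 CPM per kilobase ± 1.01 for Dpr, 7.53 ± 0.78 for DIP, 12.2 ± 0.16 for Beat and 11.7 ± 0.69 for Side (SD, n = 3 libraries). These SDs are between libraries and not between genes, and no test across genes was run. Detected genes ran from 3.91 to 64.2 in Dpr, 2.06 to 12.6 in DIP, 6.44 to 23.0 in Beat and 6.76 to 28.8 in Side. Above the protein-coding median per kilobase lay 12 of 21 Dpr, 0 of 10 DIP, 6 of 13 Beat and 3 of 8 Side genes. These counts depend on the scale. Before division by length the median was 49.4 CPM for Dpr, 27.5 for DIP, 35.5 for Beat and 79.9 for Side. That of detected protein-coding genes was 28.3 CPM, so the DIP median was then close to it. Dpr genes also covered the widest range per kilobase, with a 16.4-fold difference between the highest and the lowest, against 6.12-fold among detected DIP genes, 3.57-fold among Beat and 4.26-fold among Side. Such a range can widen with the number of genes, and Dpr is the largest family.

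**Figure D1:**
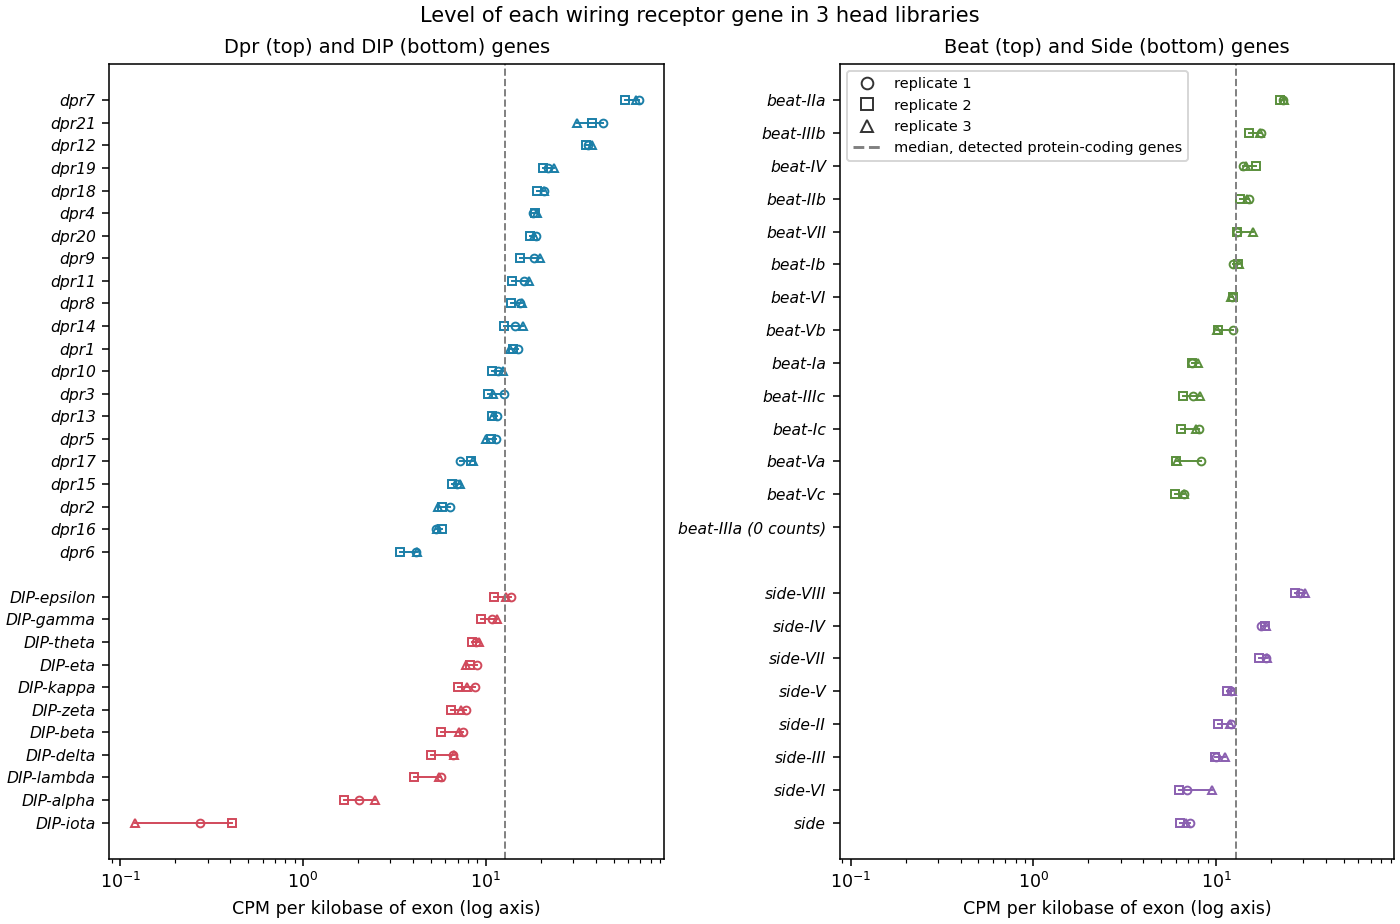
CPM per kilobase of exon (log axis) of each gene in replicates 1 (circles), 2 (squares) and 3 (triangles), with Dpr and DIP genes on the left and Beat and Side genes on the right. *dpr7* lies furthest right at 57.9 to 68.5, every detected DIP gene has a mean left of the dashed median of detected protein-coding genes (12.8), and *beat-IIIa* has no point because it was listed at 0.

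*dpr7* (FBgn0053481, chromosome 4, 247124 to 253329, minus strand) was the highest member per kilobase. It had 865, 645 and 632 counts, or 68.5, 57.9 and 66.2 CPM per kilobase in replicates 1, 2 and 3. Its lowest library exceeded the highest library of any other member, and its mean of 64.2 ± 5.57 (SD, n = 3) exceeded 89.1% of detected protein-coding genes. It is also the only member on chromosome 4, a small and largely heterochromatic chromosome.

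*dpr21* (FBgn0260995, chromosome 2R, 3066499 to 3191011, plus strand) came next, with 43.5, 38.2 and 31.5 CPM per kilobase. *dpr12* (FBgn0085414, chromosome 2R, 5804712 to 5860831, plus strand), whose product binds DIP-delta and is needed to form a compartment of the mushroom body, the fly's memory centre, had 36.2, 35.2 and 37.9. Their ranges overlapped, and *dpr21* was the higher in 2 of 3 libraries. Their gene models differ in length. *dpr21* has 993 annotated exon bases, of which 147 lie outside the longest coding sequence, while *dpr12* has 4704 with 3726 outside. Before division by length, *dpr12* was the highest member of all at 171 CPM ± 6.51, and *dpr21* ranked 13 among 21 Dpr genes at 37.5 CPM ± 5.98 (SD, n = 3).

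Below these, most Dpr genes formed a continuum. From *dpr19* at 22.0 CPM per kilobase ± 1.58 to *dpr6* at 3.91 ± 0.46 (SD, n = 3), neighbouring genes in the order often overlapped. Of the 20 neighbouring pairs in the whole Dpr order, the library ranges were apart in 7, and the higher gene was higher in every library in 13. *dpr6* (FBgn0040823, chromosome 3L, 9974651 to 10139360, plus strand) had 4.14, 3.38 and 4.20 CPM per kilobase, and no library of *dpr16*, the next gene up, came that low (lowest 5.34).

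The DIP genes began where many Dpr genes ended. *DIP-epsilon* (FBgn0259714, chromosome 2L, 6377771 to 6411326, minus strand) was the highest, with 13.7, 11.1 and 12.9 CPM per kilobase. *DIP-gamma* (FBgn0039617, chromosome 3R, 28925004 to 28970372, minus strand) followed with 10.9, 9.38 and 11.6. Their ranges overlapped, and *DIP-epsilon* was the higher in 3 of 3 libraries. Then came 6 genes between *DIP-theta* at 8.77 and *DIP-delta* at 6.10, among which the library ranges of all neighbours overlapped, and *DIP-lambda* at 5.08 ± 0.91 (SD, n = 3). *DIP-alpha* (FBgn0052791, chromosome X, 3507245 to 3571649, minus strand) stood apart as the lowest detected member, with 2.03, 1.67 and 2.47 CPM per kilobase, below every library of *DIP-lambda* (lowest 4.04). Its 8983 exon bases are the most of any DIP gene. Without division by length it had 18.5 CPM ± 3.63, above *DIP-lambda* at 12.5 CPM ± 2.23 (SD, n = 3), so it was low among DIP genes on both scales and the lowest only per kilobase.

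Among Beat genes, *beat-IIa* (FBgn0038498, chromosome 3R, 17320004 to 17366119, minus strand) was apart from the rest, with 23.2, 22.3 and 23.5 CPM per kilobase. *beat-IIIb* followed at 16.7 ± 1.30 (SD, n = 3). The founding member *beat-Ia* (FBgn0013433, chromosome 2L, 16049965 to 16081684, plus strand) had 7.40, 7.40 and 7.97. *beat-Vc* was the lowest detected, at 6.44 ± 0.40 (SD, n = 3). Of 12 neighbouring pairs in the Beat order, the ranges were apart in 2, above and below a middle group that ran from *beat-IIIb* to *beat-Vb*.

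Among Side genes, *side-VIII* (FBgn0086604, chromosome 2R, 20424338 to 20478951, plus strand) had 28.8, 27.0 and 30.5 CPM per kilobase. At 158 CPM ± 9.69 it was also the member with the second highest level before division by length. *side-IV* and *side-VII* shared the next place at 18.3 ± 0.59 and 18.2 ± 0.96, with overlapping ranges. *side* itself (FBgn0016061, chromosome 3R, 27375088 to 27437482, minus strand) had 7.15, 6.30 and 6.82 CPM per kilobase and a mean of 79.2 CPM (SD 4.99, n = 3). Its 11723 exon bases are the most of any member, and 8765 of them lie outside its longest coding sequence.

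**Figure D2:**
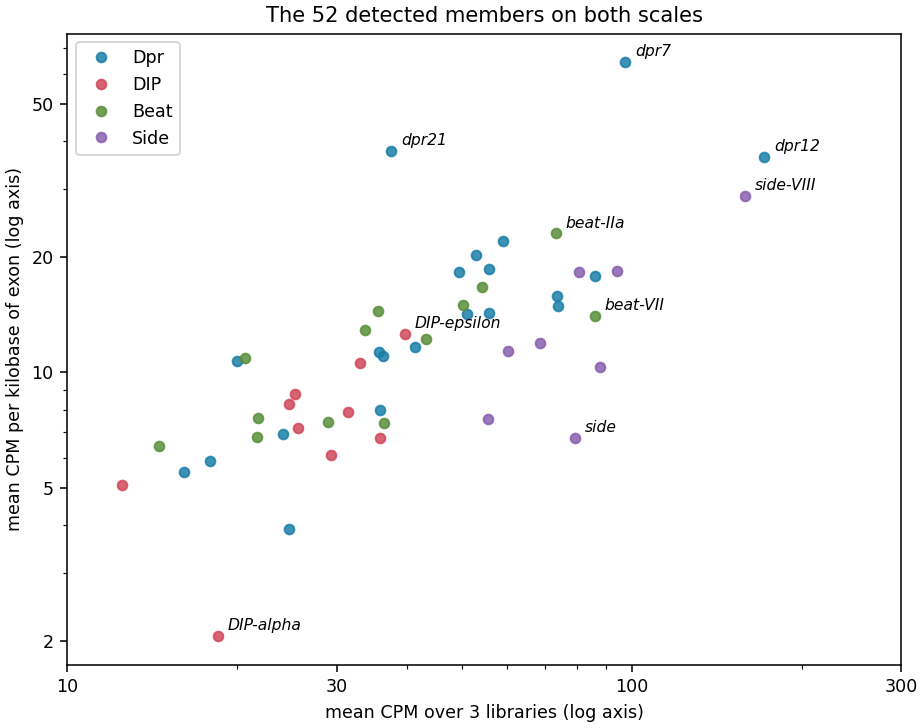
Mean CPM per kilobase of exon against mean CPM over 3 libraries (both axes log) for the 52 detected members, coloured by family. Side genes lie to the lower right because their exons are long (median 5634 bases, against 3515 over all members), *dpr21* lies to the upper left, and *dpr12* is the furthest right at 171 CPM.

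The order of the Beat and Side sums therefore depended on the scale. Summed per kilobase, Beat genes had 155 CPM per kilobase ± 5.26 and Side genes 113 ± 6.51, a log2 ratio of 0.45 ± 0.04 (SD, n = 3) with the same sign in 3 of 3 libraries. Summed without division by length, Beat genes had 520 CPM ± 20.3 and Side genes 685 ± 41.3, and the log2 ratio was -0.40. Both sums cover 13 detected Beat genes and 8 Side genes, so the number of genes is part of these ratios. The medians of detected genes were 12.2 CPM per kilobase for Beat and 11.7 for Side. Dpr genes exceeded DIP genes on both scales. Their sum was 369 CPM per kilobase ± 18.4 for Dpr and 75.6 ± 7.25 for DIP (SD, n = 3), 4.90-fold higher for Dpr. The log2 ratios were 2.25, 2.37 and 2.25 in replicates 1, 2 and 3. These sums cover 21 Dpr and 11 DIP genes, so the number of genes is part of this ratio too. The medians of detected genes were 14.3 CPM per kilobase for Dpr and 7.53 for DIP.

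Next, the mRNAs of proteins known to bind each other were compared, in 11 pairs taken from background knowledge. Each pair gave 1 log2 ratio per library, and both family ratios were added. Signs were flipped in an exact permutation test (two-sided), which cannot give a p below 0.25 from 3 values. No ratio could pass 0.05. The p was 0.25 for 12 of the 13 ratios (0.271 after Benjamini-Hochberg adjustment) and 0.75 for *beat-Va* over *side-VI*. The ratios are given with their spread and with the error that counting alone would give.

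In all 4 listed DIP and Dpr pairs, the DIP was the lower partner in 3 of 3 libraries, on both scales. The list is a selection and uses *DIP-alpha* more than once. Other pairings were not compared, so this order need not hold for DIPs and Dprs that bind in general. *DIP-alpha*, which with its partners directs synapse formation of specific motor and visual neurons, had 2.06 CPM per kilobase ± 0.40, against 3.91 ± 0.46 for *dpr6* and 11.6 ± 0.87 for *dpr10* (SD, n = 3). The log2 ratio of *DIP-alpha* was -0.94 ± 0.15 to *dpr6* and -2.51 ± 0.18 to *dpr10*, with counting errors of 0.17 and 0.15. Before division by length these ratios were -0.43 and -1.17. *DIP-delta* (6.10 ± 0.92) stood 6.005-fold below *dpr12* (36.4 ± 1.38), a log2 ratio of -2.59 ± 0.19 with a counting error of 0.11. In every one of these pairs the difference exceeded the spread between libraries.

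*DIP-gamma* and *dpr11* (FBgn0053202, chromosome 3R, 6529169 to 6593330, minus strand) are known from colour vision circuits, where *dpr11* is made by a class of R7 photoreceptors and *DIP-gamma* by their postsynaptic Dm8 neurons. *DIP-gamma* had 10.6 CPM per kilobase ± 1.11 and *dpr11* 15.8 ± 1.74 (SD, n = 3), a ratio much closer to 1 than for *DIP-delta* and *dpr12*. The log2 ratios in replicates 1, 2 and 3 were -0.58, -0.57 and -0.58. Their SD of 0.01 is far below the counting error of 0.11, so the counts could not resolve the ratio as finely as these 3 values agree.

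Beat and Side partners were closer to each other per kilobase. *beat-Ia* over *side* had a log2 ratio of 0.17 ± 0.10, with 7.59 ± 0.33 and 6.76 ± 0.43 CPM per kilobase (SD, n = 3). *beat-IIa* and *beat-IIb*, which both bind Side-IV in a system used for synaptic choice in the visual system, lay on opposite sides of *side-IV*, at 0.33 ± 0.06 for *beat-IIa* and -0.34 ± 0.11 for *beat-IIb*. Antisense RNA genes cover 3457 of 5123 exon bases of *side-IV*, and whether this lowered its counts was not tested. *beat-VI* over *side-II*, a pair from the motion-sensing circuits, had 0.10 ± 0.15, a difference within the spread. Over all 7 Beat and Side pairs the log2 ratio ran from -0.34 to 0.55. Without division by length all 7 were negative, from -1.91 to -0.36, and 4 of them thereby changed sign: *beat-Ia* over *side* (-1.86), *beat-IIa* over *side-IV* (-0.36), *beat-Vb* over *side-VI* (-1.41) and *beat-VI* over *side-II* (-0.48).

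The 3 pairs of *beat-V* genes with *side-VI* (FBgn0083950, chromosome 3R, 10972381 to 11050175, plus strand) varied most between libraries. *side-VI* had 6.93, 6.29 and 9.45 CPM per kilobase in replicates 1, 2 and 3, high in replicate 3 only. *beat-Va* had 8.26, 6.003 and 6.11, high in replicate 1 only. Their log2 ratios were 0.25, -0.06 and -0.63 in the order of the replicates, with a mean of -0.14 that became 0.10 without replicate 3. *beat-Vb* over *side-VI* was 0.55 ± 0.39 and *beat-Vc* over *side-VI* was -0.20 ± 0.25 (SD, n = 3).

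**Figure D3:**
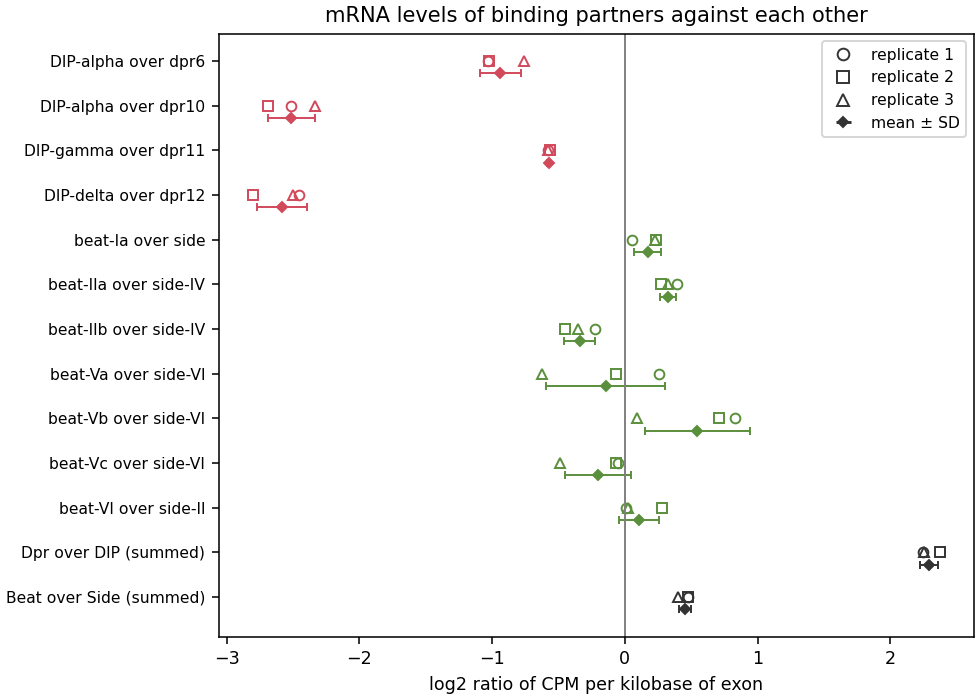
Log2 ratio of CPM per kilobase of exon for 11 pairs of binding partners and for the summed families, with open symbols for the 3 libraries and filled diamonds with bars for the mean ± SD. The 4 DIP over Dpr ratios (red) lie left of 0, from -2.59 to -0.57, the 7 Beat over Side ratios (green) lie between -0.34 and 0.55, and the summed Dpr over DIP ratio is 2.29.

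Most members had long gene models. The spans of other wiring genes were not compared, so this trait need not be particular to these families. The median member spans 36.2 kb, against 2.93 kb for detected protein-coding genes, and 44 of 54 members span more than 10 kb, against 19.1% of those genes. The spread is wide, from 3.74 kb for *dpr19* to 379 kb for *DIP-lambda* (FBgn0267428), which lies near the start of the annotated 2R sequence. Coding length separated Side genes from the other families. The longest coding sequence had a median of 3231 bases in Side genes (range 2817 to 5067), 1188 in Dpr, 1596 in DIP and 1180.5 in Beat genes, against 1404 in detected protein-coding genes. Across the 52 detected members, the level per kilobase had a Spearman correlation of -0.23 with gene span and -0.18 with exon length, both given as descriptions across genes that share the same libraries.

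**Figure D4:**
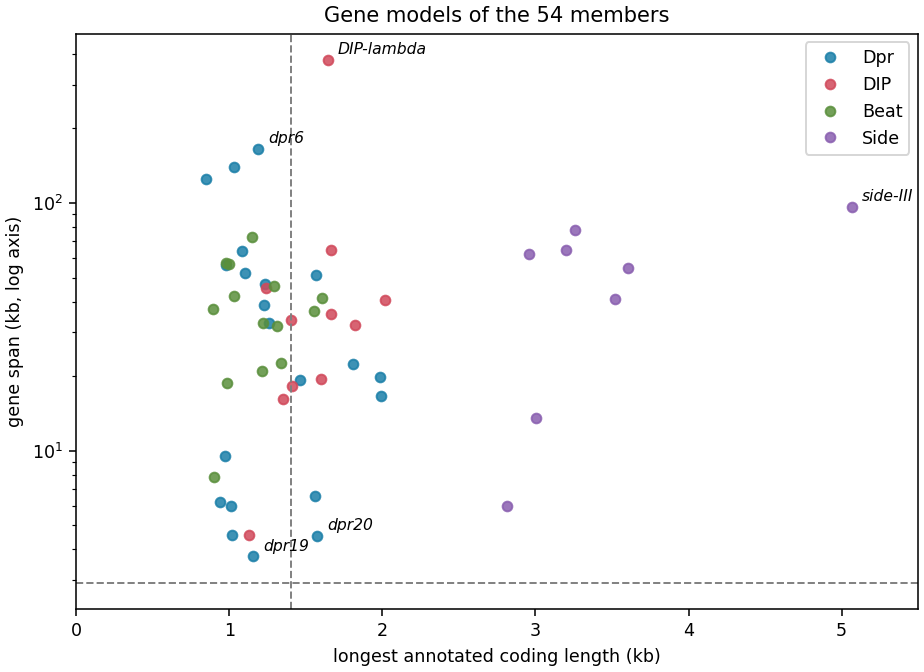
Gene span (kb, log axis) against the longest annotated coding length (kb) for all 54 members, coloured by family, with dashed lines at the medians of detected protein-coding genes (2.93 kb and 1404 bases). All members lie above the span line, Side genes lie to the right at 2817 bases or more, and *DIP-lambda* is highest at 379 kb.

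Members were spread over the genome by family. All 14 Beat genes lie on 2L (6) and 3R (8), 6 of 11 DIP genes lie on 2L, 5 of 8 Side genes lie on 3R, and Dpr genes occur on 2L, 2R, 3L, 3R, 4 and X. Neighbours within 50 kb of each other formed 7 pairs, and proximity did not go with equal levels in all of them. *dpr6* and *dpr10* lie 8.09 kb apart on opposite strands and share DIP-alpha as a partner, yet *dpr10* (FBgn0052057) was 2.98-fold higher per kilobase, with a log2 ratio of 1.57 ± 0.09 (SD, n = 3). *dpr4* exceeded *dpr5* by 0.79 ± 0.12 at a distance of 27.5 kb, and *beat-Ib* exceeded *beat-Ic* by 0.81 ± 0.21 at 37.9 kb. Both orders are per kilobase. Before division by length *beat-Ib* was below *beat-Ic* (33.6 and 36.4 CPM), *beat-Ia* was below *beat-Ic* too (21.8 and 36.4 CPM), and *dpr10* and *dpr6* were closer (41.2 and 24.7 CPM). By contrast, per kilobase *beat-Ia* over *beat-Ic* (0.04 ± 0.16, 8.26 kb apart) and *DIP-theta* over *DIP-eta* (0.08 ± 0.14, 8.34 kb apart, same strand) had ratios within the spread. *dpr17* over *dpr15* was 0.21 ± 0.15 (SD, n = 3).

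Other annotated genes overlapped the exons of 9 members, which bears on how reads were assigned. On the same strand, 363 of 2881 exon bases of *DIP-theta*, 158 of 8983 of *DIP-alpha* and 42 of 4924 of *beat-Ic* are shared, besides all of *beat-IIIa*. On the opposite strand, 3457 of 5123 exon bases of *side-IV* are covered by antisense RNA genes. One of these, asRNA:CR17025, had 12, 12 and 10 counts, against 755, 696 and 608 for *side-IV*. Of the 88 protein-coding genes covered to at least 95% on the opposite strand only, 30.7% were listed at 0. This lies between the 20.2% of genes that share no exon base and the 94.6% of the same-strand class. Their median count sum was 14.5, against 172 for genes that share no exon base. The strand setting of the counting is not given in the sources used here.

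The replicates were then compared gene by gene, to ask whether any receptor varied between libraries of the same genotype more than genes of like abundance. In edgeR's quasi-likelihood fit, 0 of the 52 members tested were called at an adjusted p under 0.05, where 0.32% of all 9049 genes tested were. At an unadjusted p under 0.05 there was 1 member, where 4.64% of all genes were below it. This was *side-VI*, with 46.1 CPM in replicate 2 and 69.4 CPM in replicate 3 (p 0.013, adjusted p 0.692, edgeR with Benjamini-Hochberg). The count of members below an unadjusted 0.05 was 5 without the low count filter, and 3, 4 and 3 without replicate 1, 2 or 3. *side-VI* was among them in each of these fits except the one without replicate 3. The count of members called was also 0 with DESeq2 dispersion outliers (1.18% of genes called), with DESeq2 size factors (0.332%), without the low count filter (0.914% of 12909 genes, 53 members tested), and without replicate 1 (0.607%), 2 (0.627%) or 3 (0.479%). The median ratio of the highest to the lowest library, in TMM-scaled CPM, was 1.18 over members and 1.17 over all genes tested, and the largest in a member was 1.56 (*side-VI*). *dpr16* (1.03) and *beat-VI* (1.02) were the steadiest. The order of the members was also alike between libraries, with Spearman's rho of 0.971 to 0.978 across the 52 detected genes.

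Small as they were, the differences between libraries had a common direction, which was counted only after the data had been seen. Of the 52 members, 38 had their lowest CPM in replicate 2, where 26.1% of all genes tested did, and 7 each were lowest in replicates 1 and 3. With TMM scaling 42 were lowest in replicate 2 (36.0% of all genes), and with DESeq2 size factors 43 were (36.8%). The median log2 ratio of replicate 2 to the mean of replicates 1 and 3 was -0.15 over members and 0.05 over all genes tested, and -0.20 and -0.0029 with TMM. By family, replicate 2 was lowest for 14 of 21 Dpr, 9 of 10 DIP, 8 of 13 Beat and 7 of 8 Side genes. The summed CPM of all members was 2648, 2432 and 2707 in replicates 1, 2 and 3. DIP genes showed the lowest share, their sum in replicate 2 being 83.2% of the mean of replicates 1 and 3, against 91.1% for Dpr, 93.7% for Beat and 91.3% for Side. *dpr16*, *beat-IV* and *beat-VI* went the other way and were highest in replicate 2 by CPM. With TMM this held for *dpr16* and *beat-IV*, while *beat-VI* was lowest there (43.7, 42.8 and 43.2 TMM-scaled CPM).

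**Figure D5:**
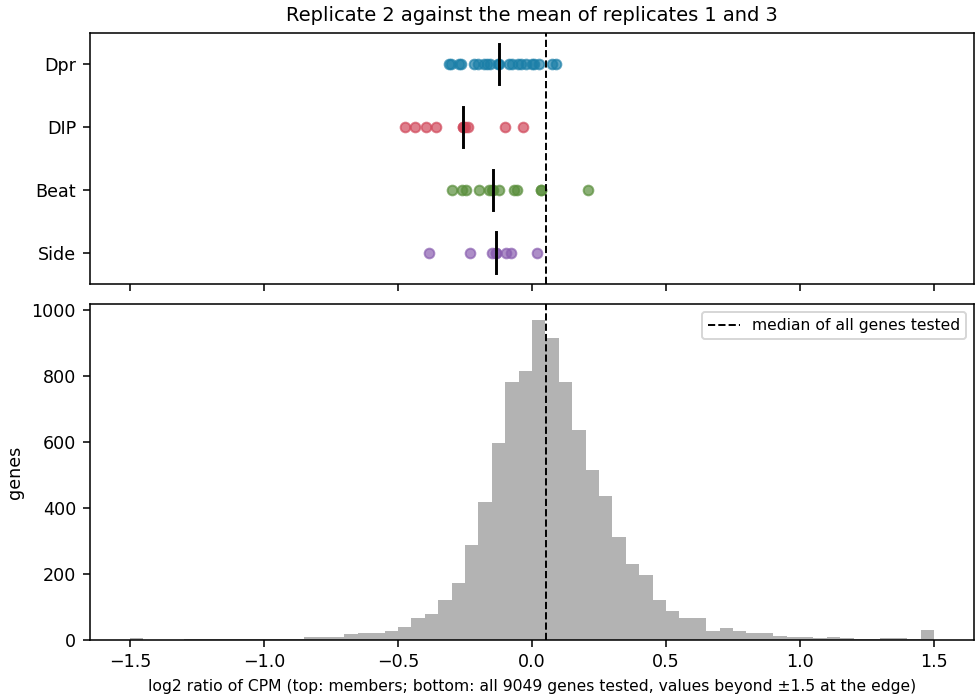
Log2 ratio of CPM in replicate 2 to the mean of replicates 1 and 3, as points for the members of each family with their medians as short bars (top) and as a histogram of all 9049 genes tested (bottom). The dashed line is the median of all genes (0.05), and the family medians lie left of it at -0.12 (Dpr), -0.26 (DIP), -0.14 (Beat) and -0.13 (Side).

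Replicate 2 was also low in most neuron markers and high in most fat body markers. The summed CPM of 7 matched neuron markers was 5136, 4553 and 5313 in replicates 1, 2 and 3, and 6 of the 7 were lowest in replicate 2. The 5 fat body markers summed to 20715, 30211 and 22373 CPM, and 4 of 5 were highest in replicate 2. The rise was largest in the yolk protein gene *Yp1* (7397, 12147 and 8672 CPM) and small in *apolpp* (4502, 4910 and 4412). *Lsp2* was highest in replicate 1 (150, 130 and 31.0 CPM). Muscle markers summed to 5346, 4356 and 4620 CPM, glial markers to 2967, 2831 and 2791, photoreceptor markers to 38375, 40589 and 40062, and haemocyte markers to 437, 497 and 568. No matched marker was at 0 in any library. The sum of all members was 51.6, 53.4 and 51.0 CPM per 100 CPM of neuron markers in replicates 1, 2 and 3. Replicate 2 was thus not the lowest for this pooled sum, which does not speak for each family. The neuron marker sum in replicate 2 was 87.1% of the mean of replicates 1 and 3. The DIP sum was below that share at 83.2%, and the Dpr, Beat and Side sums were above it at 91.1%, 93.7% and 91.3%. The part of tissue composition, or of the mix of sexes, in the lower values of replicate 2 was not tested.

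As a comparison, 58 symbols of other wiring genes, cell surface and secreted, were listed. They included *Dscam1*, *robo1*, *Fas2*, *CadN*, teneurins, plexins and neurexin. Of these symbols 55 were matched, and 54 of the matched genes were detected. Their median was 12.7 CPM per kilobase ± 0.66 (SD of the library medians, n = 3), beside 11.3 for the members, and 26 of 54 lay above the protein-coding median. In the edgeR fit 0 of the 54 were called, and 1 had an unadjusted p under 0.05. They too were most often lowest in replicate 2, in 35 of 54 cases by CPM and in 44 of 54 with TMM. *cDIP* (FBgn0038865), a secreted leucine-rich repeat protein that binds many Dprs and DIPs, had 254, 276 and 173 counts, or 16.4, 20.2 and 14.8 CPM per kilobase. Unlike most members it was highest in replicate 2. Its mean of 17.2 ± 2.79 CPM per kilobase (SD, n = 3) lay above that of every DIP gene. Before division by length, at 31.8 CPM, it was below some DIP genes, the highest being *DIP-epsilon* (39.6 CPM), and above others.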

How the data were processed

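Poly(A) RNA of adult heads was sequenced in 3 libraries (TruSeq Stranded mRNA, 150 ng of total RNA). The authors deposited raw read counts per FlyBase gene, not normalized. Per the submitters' processing notes the tools were STAR 2.7.4a and featureCounts (Subread) on dm6, and the methods of the study name snakePipes with Ensembl release 96. How reads shared by overlapping genes were treated, and the strand setting, are not given in the sources used here. Columns left unused numbered 0.

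Symbols, positions and exon lengths (union of all annotated exons) came from Ensembl release 115 (dm6 coordinates), which matched 17252 of 17558 table genes. CPM used the total of all genes. Partner ratios had 0.5 count added to each gene. The spread between replicates was fitted across all genes with edgeR 4.0.16 in R 4.3.3 (TMM, filterByExpr, intercept only), where each quasi-dispersion was set against its prior (F distribution, upper tail) and p-values were adjusted by Benjamini-Hochberg. DESeq2 1.42.0 was an alternative. The fit was tested on simulated data, in which large changes of 1 library were mostly called and small ones mostly were not. No list-wide test was run.

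The members, lists and pairs were chosen with earlier results of these data known. Named were, per family, the highest pair and the lowest detected member per kilobase, all partners, members with an unadjusted p under 0.05, and neighbours within 50 kb. *dpr16*, *dpr19*, *beat-IV*, *DIP-lambda* and *side-VII* were named besides, after their values were seen.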

Additional observations from a re-analysis of the deposited data

How the results depend on the processing

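For 43 results, 283 values were recomputed under other settings. Of these, 252 moved by less than 1 SD of the replicates (counts by less than 1.5 times). Leaving out 1 of 3 libraries can hardly move a mean by 1 SD, so those values had little room to fail. Of the 157 values from the other settings, 127 stayed within the limit. TMM and DESeq2 scaling moved none of the 4 family medians, nor any level of the 23 members recomputed, beyond that spread. The count of members lowest in replicate 2, and both alternatives for it, were added after seeing the data.

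Without division by length the log2 ratio changed sign for *beat-Ia* over *side* (-1.86), *beat-IIa* over *side-IV* (-0.36), *beat-Vb* over *side-VI* (-1.41), *beat-VI* over *side-II* (-0.48) and summed Beat over Side (-0.40). It moved for *DIP-alpha* over *dpr6* (-0.43) and *dpr10* (-1.17), *DIP-gamma* over *dpr11* (-1.16), *beat-IIb* over *side-IV* (-1.40), *beat-Va* (-1.34) and *beat-Vc* (-1.91) over *side-VI*, and summed Dpr over DIP (2.02). With the longest transcript as length it moved for *DIP-alpha* over *dpr10* (-2.29) and *beat-IIa* over *side-IV* (0.42), and with 5 counts added for *DIP-gamma* over *dpr11* (-0.56). These moves follow from the lengths and the added counts. Without mitochondrial genes in the total, the family medians rose by construction to 13.0 CPM per kilobase for Beat and 12.4 for Side, and with *beat-IIIa* included the Beat median was 11.5.

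Leaving out 1 library at a time kept 52 members detected and 0 called variable. Family medians then ran from 14.2 to 15.1 CPM per kilobase for Dpr, 7.16 to 7.95 for DIP, 12.1 to 12.3 for Beat and 11.4 to 12.0 for Side. *beat-Va* over *side-VI* ran from -0.34 to 0.10 and changed sign without replicate 3. No paired analysis was possible because the labels give a single group. The level of *DIP-iota* rests on 8 counts in sum. For *beat-IIIa*, absence of its RNA and loss of reads shared with CG34106 cannot be told apart.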
